A study of Mus musculus with 6 samples.

Results

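Ovarian surface epithelium markers were followed on 6 Affymetrix mouse expression arrays of ovarian granulosa cell preparations. The markers were chosen by name as 9 genes, Upk1b, Upk3b, Msln, Krt7, Krt19, Lgr5, Aldh1a2, Cdh1 and Epcam, of 18193 genes with a probe set of a single gene symbol. All 9 were measured, by 15 of the 45037 probe sets fitted. The wild-type group held 2 arrays of cells taken at day 25 of age (d25). The Foxo1/3 dKO groups, called dKO here, held 2 arrays at d25 and 2 arrays at 2 months, and both carried Foxo1 f/- and Foxo3 f/- alleles together with Amhr2-cre. The strain label of every sample names a mix of FVB and C57BL/6. Wild type at 2 months was not analysed here. Amhr2-driven Cre is used to delete genes in granulosa cells and is known to be active in part of the ovarian surface epithelium as well, while the wild-type label names no Cre. The labels do not say whether animals were pooled or whether a group's replicates are distinct animals, and the p-values given here reflect only array-to-array spread, which may be technical.

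The ovarian surface epithelium is a single layer of mesothelium-like cells that covers the ovary. It carries simple keratins and mesothelial surface proteins, and it is opened and repaired at each ovulation. It lies outside the follicle, in which granulosa cells surround the oocyte, so its transcripts mark cells other than the labelled type, although several of the 9 genes are also known in other ovarian cells. E-cadherin, for example, is known on mouse oocytes. In a bulk preparation, fewer cells of a type and less RNA per cell cannot be told apart.

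The arrays shared 1 intensity distribution closely, with medians of 73 or 74. dKO 2-month replicate 1 stood apart. Its correlation with the other 5 arrays across probe sets was between 0.964 and 0.978, while those 5 had r between 0.982 and 0.992 among themselves. The granulosa hormone gene Inha read between 26038 and 27499 on all arrays. Other granulosa genes varied more, with Foxl2 between 6165 and 13167 and Fst between 4491 and 10515. Foxo1 read 10319 and 7666 in wild type, 904 and 2291 in dKO at d25, and 126 and 343 in dKO at 2 months, while Foxo3 was not lower in dKO (1632 and 1342, 2539 and 3279, and 2484 and 1872). Whether these probes lie in the deleted parts was not examined here. A background level was set at 116.55, the 95th percentile of 9 genes not expected in the ovary. It was 102.75 without Myh6, whose values differed between arrays. The probe sets of the 9 reference genes had a median value of 14. Both levels also lay above the array medians, so they are strict cuts rather than a limit of detection. Background level means 116.55 here unless 102.75 is named. Of the 9 markers, 5 lay above 116.55 on all arrays, and all 9 lay above it on at least 1 array. On all arrays 6 lay above 102.75.

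The sequences before the start sites of 4 of the 9 genes are shown, since these 4 had their highest intensity on the same array and RefSeq promoters were matched for them. Each is the run of 250 bases before the annotated start, 5′ to 3′ on the + strand of GRCm38.p6, with GC boxes (GGGCGG on either strand) in capitals.
Upk3b (chr5:136038246-136038495): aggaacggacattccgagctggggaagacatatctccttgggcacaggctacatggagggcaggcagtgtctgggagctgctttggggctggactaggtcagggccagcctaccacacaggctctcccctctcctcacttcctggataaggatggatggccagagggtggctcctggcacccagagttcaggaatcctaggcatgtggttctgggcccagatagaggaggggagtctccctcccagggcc
Krt7 (chr15:101412153-101412402): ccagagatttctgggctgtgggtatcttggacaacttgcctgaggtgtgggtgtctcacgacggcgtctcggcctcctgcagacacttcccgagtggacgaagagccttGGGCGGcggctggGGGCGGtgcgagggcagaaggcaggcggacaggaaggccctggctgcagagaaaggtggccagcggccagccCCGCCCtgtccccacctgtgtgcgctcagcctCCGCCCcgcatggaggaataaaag
Aldh1a2 (chr9:71215539-71215788): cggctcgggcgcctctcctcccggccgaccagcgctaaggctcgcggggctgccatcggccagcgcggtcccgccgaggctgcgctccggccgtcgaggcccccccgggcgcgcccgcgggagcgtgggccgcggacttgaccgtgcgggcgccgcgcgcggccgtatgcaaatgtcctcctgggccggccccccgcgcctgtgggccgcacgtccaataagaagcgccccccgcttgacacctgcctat
Epcam (chr17:87635729-87635978): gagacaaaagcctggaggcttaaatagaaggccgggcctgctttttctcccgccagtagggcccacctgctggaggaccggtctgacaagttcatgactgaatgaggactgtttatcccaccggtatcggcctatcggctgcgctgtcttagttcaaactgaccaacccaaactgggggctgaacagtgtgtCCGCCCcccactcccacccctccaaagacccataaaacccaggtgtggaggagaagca
The 4 windows differed widely in base composition. Aldh1a2 held 40 CpG dinucleotides at 77.6% G and C, and 98.7% of all 32851 promoter windows of this length held fewer CpGs. Krt7 held 16, Epcam 8 and Upk3b 2, against a median of 6 over all windows. Krt7 held 4 GC boxes and Epcam 1, and Upk3b and Aldh1a2 held none, while 32.7% of all windows held at least 1. The FOXO core GTAAACA and the TATA box TATAAA, searched on both strands, were in none of the 4, and 3.17% and 12.4% of all windows held them. A window without a match says only that these letters were not in it.

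Most of the markers had 1 array in common. Of the 9 genes, 8 had their highest intensity on dKO 2-month replicate 1, and Cdh1 had its lowest there. Over all genes, 28.9% were highest and 27.3% lowest on that array. The median level of the 9 genes, each relative to its own mean over the 6 arrays, was 1.10 on the log2 scale on dKO 2-month replicate 1 and 0.03 on replicate 2 of that group. It was -0.31 and -0.49 in wild type and -0.26 and -0.03 in dKO at d25. The 2 dKO 2-month arrays differed by more than 2-fold for 6 of the 9 genes, against 8.11% of all genes. No marker differed by more than 2-fold between the replicates of wild type or of dKO at d25. There 2.34% and 1.90% of all genes did. In wild type, though, the replicate difference of 3 markers lay above the 95th percentile of all genes, and that of 1 below the 5th.

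**Figure D1:**
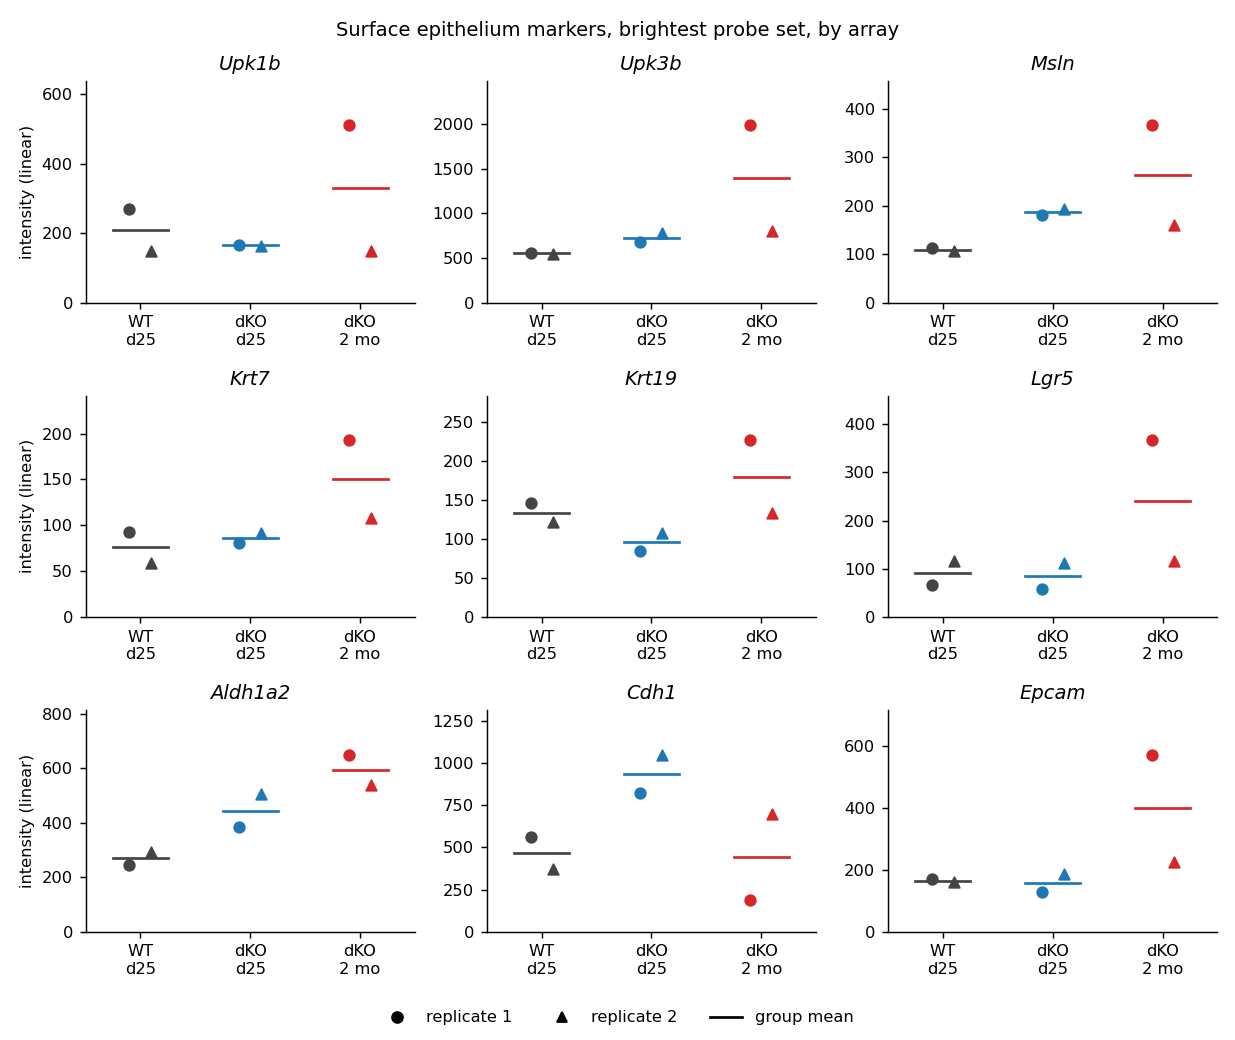
Intensity (linear scale, axes from 0) of the brightest probe set of each of the 9 markers on the 6 arrays. Circles are replicate 1, triangles replicate 2 and lines the group means. For 8 genes the highest point is the dKO 2-month replicate 1, and for Cdh1 that array is the lowest.

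Upk3b encodes a uroplakin of mesothelial cells. Its brightest probe set read 559 and 548 in wild type, 676 and 783 in dKO at d25, and 1988 and 804 in dKO at 2 months. Its groups did not overlap in any of the 3 comparisons, but the 804 of dKO 2-month replicate 2 lay only just above the 783 of dKO d25 replicate 2. The log2 difference between dKO at 2 months and wild type was 1.19 ± 0.43 (SE), adjusted p = 0.367 in limma, and it was 0.54 without dKO 2-month replicate 1. The second Upk3b probe set had the same order of group means, with 362 and 322, 381 and 479, and 1153 and 460. Its dKO groups overlapped, as 460 lay below 479. Upk3bl, a related uroplakin-like gene with a probe set of its own, had its lowest value, 39, on dKO 2-month replicate 1. It read from 39 to 74, under the background level on every array, so no pattern was read from it.

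Msln encodes mesothelin, a cell surface glycoprotein of mesothelium. It read 113 and 106 in wild type, 180 and 194 in dKO at d25, and 366 and 161 in dKO at 2 months. Both wild-type values were under the background level of 116.55 but above 102.75, the level without Myh6. At the 116.55 level the differences from wild type rest on a signal not above background. Both dKO groups lay above wild type without overlap, and the 2-month values lay on either side of the d25 values. Set against wild type, its log2 difference came to 0.77 ± 0.39 (SE) at d25, adjusted p = 0.666, and 1.14 ± 0.39 at 2 months, adjusted p = 0.354 in limma. Without dKO 2-month replicate 1 the 2-month difference from wild type was 0.55, and the difference between the dKO ages turned from 0.38 to -0.21.

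Upk1b encodes a tetraspanin that pairs with type 3 uroplakins. Its brightest probe set read 269 and 148 in wild type, 167 and 163 in dKO at d25, and 510 and 149 in dKO at 2 months. The groups overlapped in all 3 comparisons, and the 2-month replicates differed by 3.42-fold. The other 3 Upk1b probe sets read from 62 to 133, and between the 2-month replicates they differed by 2.11-fold, 1.83-fold and 1.19-fold. The brightest set carries the x suffix, which marks probes that may also match other transcripts. Without dKO 2-month replicate 1 the log2 difference between dKO at 2 months and wild type turned from 0.46 ± 0.64 (SE) to -0.42.

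Of the other uroplakins of the urothelial plaque, Upk1a (55 to 67) and Upk3a (50 to 77) lay under the background level on every array. No pattern was read from them. Upk2 read between 162 and 195, with its lowest value on dKO 2-month replicate 1. In limma 0 of the 3 had an unadjusted p under 0.05 in any comparison.

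Krt7 and Krt19 encode keratins of simple epithelia, a type II and a type I chain. Krt7 was above the background level of 116.55 only on dKO 2-month replicate 1. It was above 102.75, the level without Myh6, on replicate 2 of that group as well. Krt7 read 93 and 59 in wild type, 81 and 92 in dKO at d25, and 193 and 108 in dKO at 2 months. Its wild-type and dKO d25 values overlapped, and both 2-month arrays lay above the other 4. Krt19 read 146 and 122 in wild type, 85 and 108 in dKO at d25, and 227 and 133 in dKO at 2 months. It was the only marker whose dKO d25 arrays both lay below wild type. Both Krt19 values there were under the background level of 116.55, though 108 was above 102.75. Its difference between the dKO ages, 0.85 ± 0.30 (SE), had an unadjusted p of 0.036 and an adjusted p = 0.712 in limma, and its 2-month values overlapped with wild type. Other keratins of simple epithelia were not highest on that array, with Krt8 at 1315 and 1948 and Krt18 at 227 and 157 on the dKO 2-month arrays.

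Lgr5, an R-spondin receptor that marks progenitor cells of the surface epithelium, had most of its values at or under the background level of 116.55. It read 67 and 117 in wild type, 59 and 113 in dKO at d25, and 367 and 116 in dKO at 2 months. The value 367 stood alone, while replicate 2 of each group read between 113 and 117, above 102.75, the level without Myh6. The other Lgr5 probe set read from 16 to 20, under the background level. The log2 difference between the dKO ages was 1.33 ± 0.67 (SE), adjusted p = 0.712 in limma, and 0.50 without dKO 2-month replicate 1.

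The genes that act with LGR receptors were examined as a fixed list of 10 measured genes of WNT feedback. In dKO against wild type at d25, 4 had an unadjusted p under 0.05 in limma with a higher mean and 0 with a lower mean, and 0 passed after adjustment. Over all genes 4.89% and 3.44% had such a p. Without dKO 2-month replicate 1 the list counts were 3 and 1, and those over all 18193 genes 1647 and 1108. Axin2, a feedback inhibitor induced by WNT signals, read 301 and 225 in wild type and 406 and 618 in dKO at d25, and Lgr6, a close relative of Lgr5, read 692 and 425 against 3520 and 1103. Both lay above wild type without overlap, unlike Lgr5 itself. Rspo2, an LGR ligand known in oocytes, read 320 on dKO 2-month replicate 1 and between 1145 and 3921 on the other arrays.

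Aldh1a2, the retinaldehyde dehydrogenase that makes retinoic acid in mesothelium, differed least between the 2-month replicates. It read 246 and 293 in wild type, 385 and 506 in dKO at d25, and 651 and 539 in dKO at 2 months. The 3 groups did not overlap in any comparison, and the order was wild type, dKO at d25 and dKO at 2 months. Set against wild type, Aldh1a2 differed by 0.72 ± 0.19 (SE, log2) at d25, adjusted p = 0.529, and 1.14 ± 0.19 at 2 months, adjusted p = 0.207 in limma. The latter was 1.003 without dKO 2-month replicate 1. Its adjusted p was the smallest of the 9 markers against wild type at both ages with all arrays, but without that array Msln had smaller ones (0.322 and 0.350 against 0.335 and 0.375).

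Aldh1a1, a second retinaldehyde dehydrogenase, had the same order of groups. It read 3557 and 5359 in wild type, 7153 and 9409 in dKO at d25, and 13637 and 12440 in dKO at 2 months, a log2 difference between dKO at 2 months and wild type of 1.58 ± 0.25 (SE), adjusted p = 0.191 in limma. Aldh1a3 stayed between 43 and 47. Rarg, a retinoic acid receptor, ran the other way, with 497 and 405, 234 and 263, and 230 and 216 (adjusted p = 0.171 between dKO at 2 months and wild type). Over the 12 measured genes of the retinoic acid list, other than Aldh1a2, 3 were higher and 1 lower than wild type at 2 months at an unadjusted p under 0.05 in limma, and 0 passed after adjustment. Of all genes 9.54% and 5.38% had such a p. The median log2 difference of the list was 0.10, against 0.04 over all genes.

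Epcam encodes an adhesion molecule of epithelial cells. Its brightest probe set read 169 and 160 in wild type, 129 and 188 in dKO at d25, and 572 and 226 in dKO at 2 months. Wild type and dKO at d25 overlapped, and both 2-month arrays lay above the other 4. The log2 difference between the dKO ages was 1.20 ± 0.47 (SE), adjusted p = 0.712 in limma, and 0.53 without dKO 2-month replicate 1. The other Epcam probe set moved in a narrower range, from 159 to 238, with its highest value on the same array.

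Cdh1, which encodes E-cadherin, was the 1 marker with its lowest value on dKO 2-month replicate 1. It read 562 and 370 in wild type, 822 and 1051 in dKO at d25, and 187 and 699 in dKO at 2 months. The dKO d25 arrays lay above both other groups, and the 2-month replicates lay on either side of the wild-type values. Its log2 difference was 1.03 ± 0.66 (SE) between dKO and wild type at d25, adjusted p = 0.713, and -1.36 ± 0.66 between the dKO ages, adjusted p = 0.712 in limma, or -0.41 without dKO 2-month replicate 1. The difference between dKO at 2 months and wild type turned from -0.33 ± 0.66 to 0.62 without that array.

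The order of the 6 arrays by Cdh1 intensity was shared by most oocyte markers. From high to low it ran dKO d25 replicate 2, dKO d25 replicate 1, dKO 2-month replicate 2, wild-type replicate 1, wild-type replicate 2 and dKO 2-month replicate 1. Of 12 measured oocyte markers, 9 had exactly this order, against 2.53% of all genes. Zp2, a zona pellucida gene, read 3980 and 2419, 6424 and 10103, and 283 and 4802. No oocyte marker had the array order of any of the other 8 surface epithelium genes. The part of oocytes in the Cdh1 values was not tested.

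**Figure D2:**
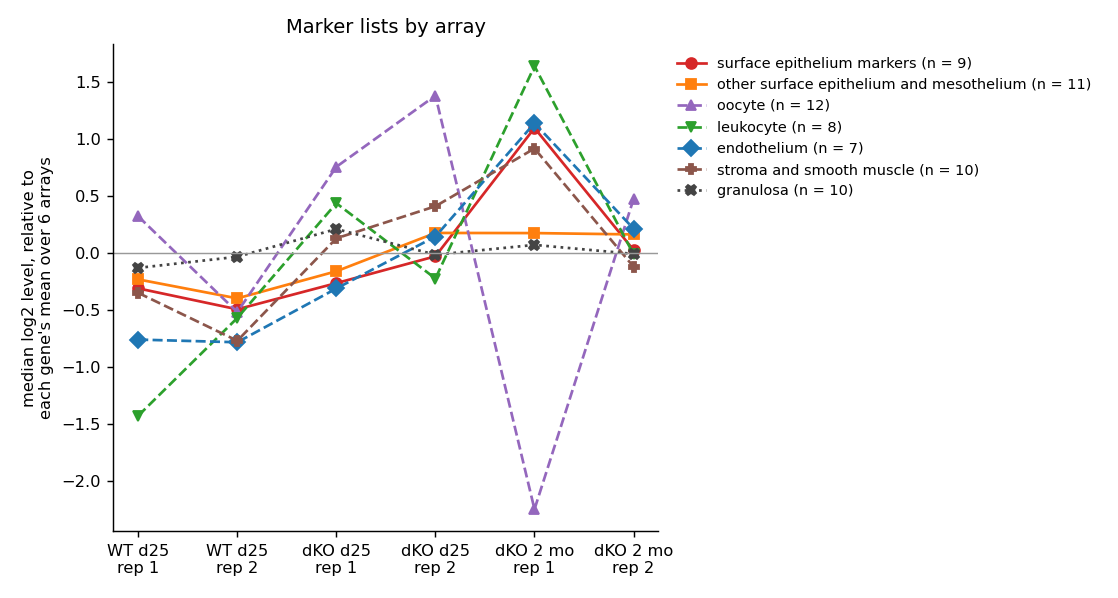
Median log2 level of each marker list on each array, relative to each gene's mean over the 6 arrays; n is the number of genes measured. On dKO 2-month replicate 1 the surface epithelium markers stood at 1.10 and the oocyte markers at -2.25, while the granulosa genes stood at 0.07.

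Other markers of surface epithelium and mesothelium were in part highest and in part lowest on the same array. Of 11 measured genes of this list, 5 were highest and 3 lowest on dKO 2-month replicate 1. Among the 5, Muc16, a large mucin of mesothelium, read 63 and 76 in wild type, 79 and 87 in dKO at d25, and 376 and 116 in dKO at 2 months. Lhx9, a transcription factor of the gonadal surface, read 51 and 53, 77 and 89, and 336 and 118, and Lrrn4, a mesothelial membrane protein, read 70 and 42, 68 and 92, and 290 and 109. Gpm6a and Rspo1 completed the 5, which were also the 5 higher in dKO at 2 months than in wild type at an unadjusted p under 0.05 in limma, with 0 lower. Of all genes 9.54% were higher and 5.38% lower at that p, and 0 of the list passed after adjustment. With dKO 2-month replicate 1 left out, 4 genes of the list and 1409 of all 18193 were higher. Muc16, Lhx9, Lrrn4 and Rspo1 lay under the background level on both wild-type arrays. Their differences from wild type therefore rest on a signal not above that level. Muc16, Lrrn4 and Rspo1 were above 116.55 only on dKO 2-month replicate 1, while Gpm6a was above it on every array. On replicate 2 of that group they read 116, 109 and 112, above 102.75, the level without Myh6. Rspo1 was also above 102.75 on dKO d25 replicate 2, at 111. Among the 3 lowest, Bnc1, a basonuclin also known in oocytes, read 988 and 450, 1130 and 1844, and 211 and 827. Wt1 and Upk3bl were the other 2, and Upk3bl was the 1 gene of the list with the array order of Cdh1. Upk3bl lay under the background level on every array, so neither its lowest array nor its order can be relied on.

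Claudins and other epithelial junction genes did not have the pattern of the markers as a list. Of 18 measured genes, 3 were highest and 5 lowest on dKO 2-month replicate 1. Cldn3, a tight junction claudin, read 107 and 114, 95 and 108, and 213 and 115. Esrp1, a splicing factor of epithelia, had the array order of Cdh1, with 851 and 388, 1226 and 1850, and 80 and 910. Of 7 cadherins and catenins of adherens junctions, 6 were highest on that array. Cdh5, the cadherin of endothelium, read 82 and 81, 142 and 167, and 318 and 177, and Cdh11, a cadherin of mesenchymal cells, read 493 and 227, 394 and 652, and 770 and 557. Cdh2, the N-cadherin of granulosa cells, was the exception and read between 2266 and 3822. Of 5 oviduct epithelium markers, 4 lay under the background level on every array, with Pax8 between 21 and 24, Foxj1 between 30 and 36, Dynlrb2 between 20 and 42 and Sox17 between 31 and 58. Ovgp1, the oviduct glycoprotein, read 107 and 121, 69 and 113, and 89 and 289, and was highest on dKO 2-month replicate 2.

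Markers of further cell types stood high on the same array. On dKO 2-month replicate 1 and replicate 2 the summed intensity of the 9 surface epithelium genes was 5061 and 2935. For 8 leukocyte markers it was 13760 and 4388, for 7 endothelial markers 2631 and 1268, for 10 stromal and smooth muscle markers 50220 and 26743, and for 12 oocyte markers 6233 and 34209. The sums on the d25 arrays, wild type before dKO, were 2224, 1923, 2584 and 3198 for surface epithelium, 1434, 2823, 7452 and 4078 for leukocytes, and 625, 727, 782 and 1190 for endothelium. For stroma they were 24835, 17199, 30037 and 36901, and for oocytes 30599, 18295, 43203 and 63901. All 8 leukocyte and all 7 endothelial markers, and 6 of the 10 stromal markers, were highest on dKO 2-month replicate 1. Of 12 oocyte markers, 11 were lowest there. Among the endothelial markers, Pecam1 (30 to 86) lay under the background level on every array. Cdh5, Tek, Robo4 and Emcn lay under it on both wild-type arrays. Among the leukocyte markers, Ptprc, Cd68, Cd52 and Laptm5 lay under it at least on wild-type replicate 1. No gene of these lists was at 0 on any array. The summed intensity of the 6 theca and interstitium markers was high on both dKO 2-month arrays, at 46929 and 38205. On the d25 arrays it was 21112, 24255, 16250 and 29897. Of the 6, 2 were highest on dKO 2-month replicate 1. Only Cyp17a1, Star and Cyp11a1 were higher at 2 months without overlap with either d25 group. Of all genes, 19.7% were higher without overlap against dKO at d25 and 26.6% against wild type. Cyp17a1, the androgen synthesis enzyme, read 1275 and 1509, 389 and 5073, and 12804 and 15028. The part of these cells in the surface epithelium values was not tested.

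**Figure D3:**
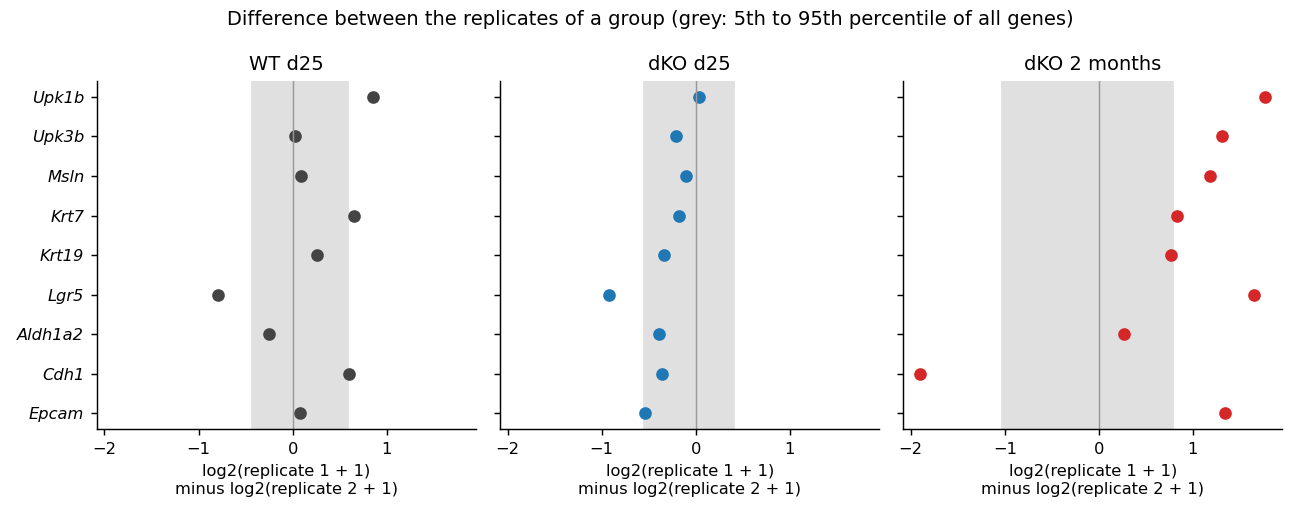
Difference between replicate 1 and replicate 2 of each group for the 9 markers, as log2(value + 1); the grey band spans the 5th to the 95th percentile of all genes. In the dKO 2-month group 6 markers lie above the band and Cdh1 lies below it, and the median marker difference is 1.18. In wild type 3 markers lie above the band and 1 below, and in dKO at d25 0 lie above and 1 below.

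At d25 both genotypes were available at the same age. Marker means were higher in dKO for 5 genes, Upk3b, Msln, Krt7, Aldh1a2 and Cdh1, and lower for 4, with a median log2 difference of 0.22, against 0.03 over all genes. In limma 0 of 9 passed an adjusted p of 0.05, as did 0% of all genes. At an unadjusted p under 0.05, 1 was higher (Aldh1a2) and 0 lower, where 4.89% of all genes were higher and 3.44% lower. The groups did not overlap for 4 higher genes and 1 lower gene, against 26.4% and 19.5% of all genes. Without dKO 2-month replicate 1, which enters here only through the pooled spread, 4 were higher at an unadjusted p under 0.05, as were 1647 of the 18193 genes. The median was 0.41 without wild-type replicate 1, 0.35 without dKO d25 replicate 1 and 0.13 without dKO d25 replicate 2. With 2 arrays a group, the smallest p of an exact permutation test of a single gene is 0.333.

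The dKO preparations were next compared across ages. Means were higher at 2 months for 8 markers and lower for Cdh1, with a median log2 difference of 0.74, against 0.02 over all genes. In limma 0 of 9 passed after adjustment, as did 0% of all genes, and at an unadjusted p under 0.05, 1 was higher (Krt19) and 0 lower, where 3.73% and 2.91% of all genes were. The groups did not overlap for 6 higher genes, Upk3b, Krt7, Krt19, Lgr5, Aldh1a2 and Epcam, and for 1 lower gene, against 19.7% and 17.0% of all genes. The second probe sets of Upk3b and Lgr5 did overlap. The median was 0.29 when dKO 2-month replicate 1 was left out, with 6 higher and 3 lower means, and 1.24 when replicate 2 of that group was.

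Between dKO at 2 months and wild type at d25 the samples differ in both genotype and age, and this comparison shares its arrays with the others. Means were higher at 2 months for 8 markers, with a median log2 difference of 1.12, against 0.04 over all genes. In limma 0 of 9 passed after adjustment, as did 0% of all genes. At an unadjusted p under 0.05, 4 were higher, Upk3b, Msln, Krt7 and Aldh1a2, and 0 lower, where 9.54% and 5.38% of all genes were. Without overlap, 5 were higher and 0 lower, against 26.6% and 17.3% of all genes. When dKO 2-month replicate 1 was left out the median was 0.54, with 7 higher and 2 lower means, and 3 markers were higher at an unadjusted p under 0.05, as were 1409 of the 18193 genes.

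**Figure D4:**
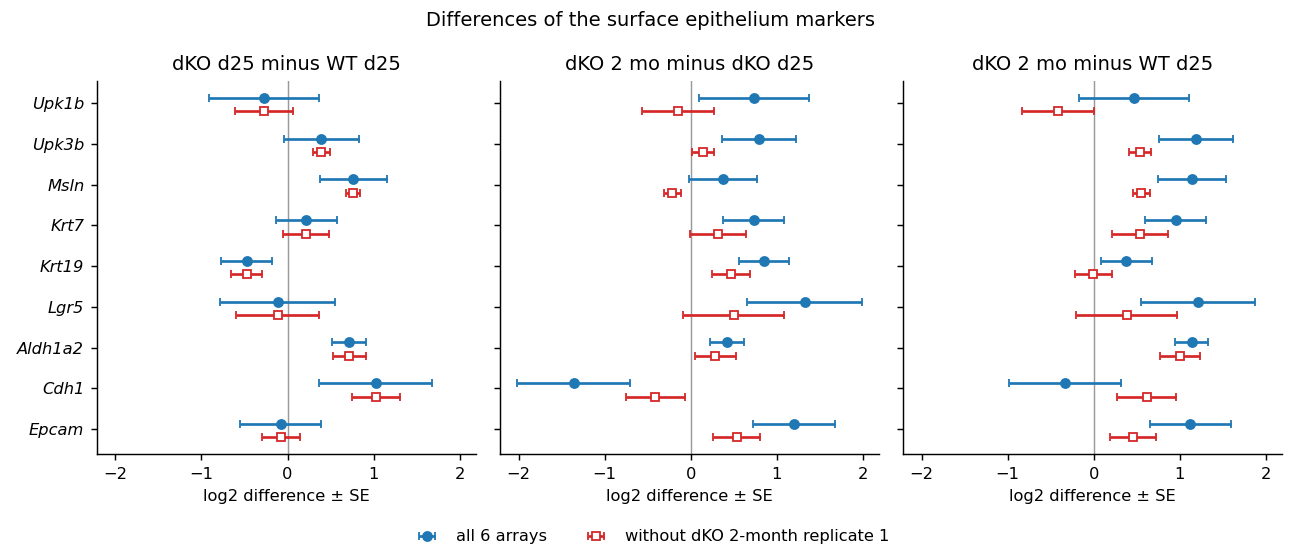
Log2 difference ± SE of each marker from limma in the 3 comparisons, with all 6 arrays (filled circles) and without dKO 2-month replicate 1 (open squares). Aldh1a2 stays near its full value against wild type (1.14 and 1.003), while Upk1b, Krt19 (-0.0050) and Cdh1 change sign in that comparison.

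Probe sets of a gene were set side by side for the 4 genes with more than 1. For Upk3b and Upk1b all probe sets had the sign of the brightest in each comparison. The other Upk1b sets differed by only 0.047, 0.040 and 0.048 (log2) between dKO at 2 months and wild type, against 0.465 for the brightest. Among those other sets, 1 was highest on wild-type replicate 1, at 105 against 92 on dKO 2-month replicate 1. For Epcam the brightest set differed by -0.08 (log2) between dKO and wild type at d25, and the other set by 0.13. The other Lgr5 set gave -0.05 between the dKO ages, against 1.33 for the brightest.

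**Figure D5:**
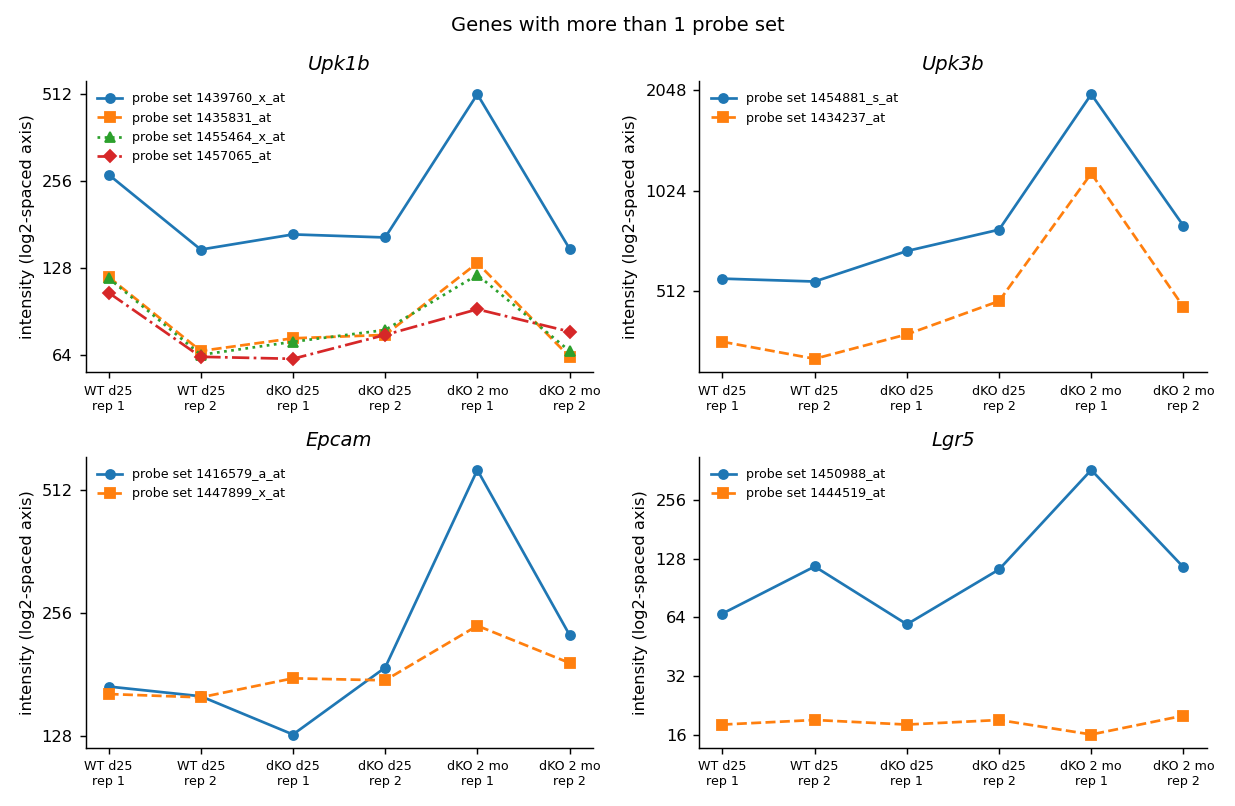
Intensity of every probe set of Upk1b, Upk3b, Epcam and Lgr5 on the 6 arrays, on a log2-spaced axis. Both Upk3b probe sets peak on dKO 2-month replicate 1 (1988 and 1153), while the other Lgr5 set stays between 16 and 20.

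The genes with the array pattern most like the mean of the 9 markers were sought among 11419 genes above the background level on at least 1 array. The measure was Pearson's r over the 6 arrays, given as a description because 1 array dominates it. The 10 most alike were Slc48a1, C1s1, Gas1, Marchf2, Prss8, Hacd3, Erf, Egfl6, Abcb1a and 5330411J11Rik, with r from 0.994 to 0.999. On the 5 arrays other than dKO 2-month replicate 1 their r was between 0.975 and 0.999. Those 5 arrays were among the 6 used to pick the genes, so this r is no independent check. In all, 691 of the 11419 genes had r over 0.9, so many genes had a like pattern. Gas1, a growth arrest-specific protein of the cell surface, read 709 and 633 in wild type, 699 and 921 in dKO at d25, and 2239 and 964 in dKO at 2 months. C1s1, a complement protease, read 446 and 360, 414 and 610, and 1448 and 616. Prss8, the epithelial serine protease prostasin, read 61 and 56, 66 and 80, and 130 and 77. Prss8 and 5330411J11Rik were above the background level only on dKO 2-month replicate 1, which limits what their likeness can show.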

How the data were processed

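Total RNA of granulosa cell preparations was hybridized to 1 Affymetrix array per sample. The authors deposited 1 linear intensity for each probe set, as whole numbers. The submitters' processing notes name affy and RMA; versions, the rounding and the genome build are not given in the sources used here. RMA equalizes the arrays' distributions and so hides a shift common to most genes. Control probe sets (64) were left out. GEO's platform annotation gave 1 symbol for 34945 probe sets, several for 932 and none for 9160, and the brightest probe set stands for a gene.

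log2(intensity + 1) was fitted in limma 3.58.1 (R 4.3.3) with a mean per group over all 6 arrays and 3 residual degrees of freedom, with two-sided tests and Benjamini-Hochberg adjustment over 45037 probe sets. A log2 difference on this scale understates changes of dim genes. On simulated arrays of the comparison of the dKO ages, limma recovered 22% of 2-fold and 90% of 4-fold changes among 45037 probe sets. The simulated noise was independent and of equal spread on all arrays. No simulated array stood apart as dKO 2-month replicate 1 did, so these shares may not hold for the real arrays. In the data, 0 of the 45037 probe sets passed in this comparison. Precision is limited by having 2 arrays a group. The markers and lists were chosen with earlier results of these data known. All markers were to be named, with up to 4 genes of smallest p from each companion list and the 10 genes of most like pattern, members left out. Zp2, Krt8, Krt18, Cdh2, Pax8, Muc16, Bnc1, Wt1, Upk3bl, Cldn3, Esrp1, Rspo2, Aldh1a3 and Inha fall outside this rule and were chosen after their values were seen, as was the GC box after the promoters were. Alternatives are listed in the closing section. Promoters came from RefSeq (GRCm38.p6), where 4 of the 9 genes matched.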

Additional observations from a re-analysis of the deposited data

How the results depend on the processing

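Across 10 alternatives (a pseudocount of 16, dim probe sets left out, repeated quantile normalization, median centring, a trended robust prior, the 4 arrays compared, array weights, a replicate block, averaging a gene's probe sets, and probe sets with an x, s or a suffix left out, which removes Krt7 and Epcam) and without each array in turn, 0 of the markers passed an adjusted p of 0.05 in limma. The smallest adjusted p was 0.0773, between dKO at 2 months and wild type without dKO 2-month replicate 2. Where a group keeps 1 array, its spread is taken from the other groups.

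Leaving out each array in turn, the median log2 difference of the 9 genes ranged from 0.13 to 0.41 for dKO against wild type at d25, from 0.29 to 1.24 between the dKO ages and from 0.54 to 1.37 for dKO at 2 months against wild type. Under the other alternatives these medians were 0.18 to 0.32, 0.42 to 0.77 and 0.77 to 1.15. The lowest of the second came from the suffix rule and the lowest of the third from averaging probe sets. Of 426 values of single genes, 415 kept their sign and 11 changed it; the cause was not tested. With probe sets averaged, Epcam turned to 0.027 for dKO against wild type at d25. The other 10 came from leaving out 1 array. In dKO against wild type at d25 the ranges were -0.70 to 0.16 for Upk1b, -0.11 to 0.54 for Krt7, -0.58 to 0.35 for Lgr5 and -0.35 to 0.19 for Epcam. Between the dKO ages they were -0.15 to 1.62 for Upk1b and -0.21 to 0.97 for Msln. For dKO at 2 months against wild type they were -0.42 to 1.35 for Upk1b, -0.0050 to 0.76 for Krt19 and -1.28 to 0.62 for Cdh1. The turned values of the last 2 comparisons all came without dKO 2-month replicate 1.

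With the replicate number as a block the medians stayed at 0.22, 0.74 and 1.12 and 0 genes passed; same-numbered arrays had deviation correlations of -0.16, -0.21 and 0.06, so the numbers were not taken to pair the arrays. The counts without dKO 2-month replicate 1 and the background level without Myh6 were added after seeing the data. Values near or under the background level, as in Krt7, Krt19, Lgr5 and Msln, limit what the arrays can show.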
